A study of Mus musculus with 3 samples.

Results

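A set of 9 complement genes is described here in macrophages of telogen skin, the resting phase of the hair cycle. It holds C1qa, C1qb, C1qc, C3, Cfb, Cfp, C3ar1, C5ar1, and Serping1, 9 of the 19748 genes that the array probes could be assigned to. They were chosen by name, through the RefSeq transcript that each probe carries, and 11 of the 26050 named probes belong to them. The samples came from CD1 mice, with no treatment given in the labels, at postnatal day 42 (early telogen, Te; the text of the study gives a later day for this stage), day 55 (mid telogen, Tm), and day 69 (late telogen, Tl). At each stage CD11b+Gr1−F4/80+ cells of the backskin were sorted by flow cytometry, the RNA of 3 littermates was pooled and amplified as a whole transcriptome, and the product was labeled with Cy3 and hybridized to 1 Agilent array. The 3 arrays share strain, tissue, and gate, and with 1 array per stage the spread between animals is unknown and no p-value is given. After scaling, C1qb was 2.11-fold lower at Tm and 2.27-fold lower at Tl than at Te, and C1qa and C1qc were lower by less. Cfb was 2.79-fold higher on the array labeled Tl, and Cfp differed from Te by 0.07 (log2) on both later arrays. Before scaling, C1qb had nearly the same intensity at Te (45318) and Tl (44786). The unscaled median difference of all genes between these arrays was 1.33 (log2).

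Complement is a cascade of serum proteins and receptors that marks microbes, immune complexes, and dying cells for removal. Its classical pathway starts with C1q, a bouquet-shaped complex of the A, B, and C chains that C1qa, C1qb, and C1qc encode, which carries the proteases C1r and C1s. Tissue macrophages are a main source of C1q, whereas C3, factor B (Cfb), properdin (Cfp), and the C1 inhibitor (Serping1) are also made by epithelial, stromal, or other myeloid cells.

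The 3 chain genes lie next to each other on mouse chromosome 4 in the RefSeq annotation, in the order C1qb, C1qc, C1qa. Promoter windows of 6 of the 9 genes were in the RefSeq table (GRCm38.p6), and the windows of the chain genes C1qb and C1qc, the 250 bases before each start, are shown because these chains are made for 1 protein but differed in their change below. Capitals mark the letters of 5 motifs that were searched on both strands, which are GAGGAA for PU.1, TGCTGA for MAF, GAAANNGAA for IRF, TTCNNNGAA for STAT, and TTGCNNAA for C/EBP factors. The windows are chr4:136886201-136886450 for C1qb and chr4:136892915-136893164 for C1qc, both on the minus strand, written 5′ to 3′.
C1qb: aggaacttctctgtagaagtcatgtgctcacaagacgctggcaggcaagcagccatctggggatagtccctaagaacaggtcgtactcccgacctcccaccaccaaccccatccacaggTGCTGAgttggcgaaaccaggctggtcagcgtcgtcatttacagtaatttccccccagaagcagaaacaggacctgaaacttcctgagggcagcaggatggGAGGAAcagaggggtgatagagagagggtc
C1qc: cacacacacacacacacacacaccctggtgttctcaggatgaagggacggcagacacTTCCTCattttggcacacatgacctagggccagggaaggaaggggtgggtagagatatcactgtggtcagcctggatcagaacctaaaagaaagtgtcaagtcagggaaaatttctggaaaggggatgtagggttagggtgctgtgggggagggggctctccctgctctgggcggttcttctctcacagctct
The C1qb window held the MAF letters, 131 to 126 bases before the start, and the PU.1 letters, 30 to 25 bases before it. The C1qc window held the PU.1 letters on the other strand, 193 to 188 bases before the start, and no match to the remaining motifs. Over all 32851 promoters of the table, windows of the same length held the PU.1 letters in 23.3% and the MAF letters in 16.1%, and no matches overlapped each other in either window. Of the 6 member windows, 2 held the PU.1 letters and 4 the MAF letters. The IRF letters were in 1 (C5ar1; 7.1% of all promoters), the C/EBP letters in 1 (C3; 9.6%), and the STAT letters in 0 (7.0%). A match says only that these letters are there.

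A level is the log2 of a probe's background-corrected intensity relative to the 75th percentile of all 55681 non-control probes of the same array, so that 0 is the level of that percentile and levels of different probes are not comparable. At Te, Tm, and Tl the percentile itself was an intensity of 414, 497, and 927, and 71.4%, 59.6%, and 68.7% of the probes, respectively, were well above background. An error could be measured from probes printed 10 times or more on an array, whose log2 intensities had a median SD of 0.118, 0.102, and 0.106. From these, a difference between arrays has a technical SD of 0.156 for Tm minus Te, 0.159 for Tl minus Te, and 0.147 for Tl minus Tm. This SD is that of single spots, so it is too large for a probe averaged over repeated spots. It covers spot noise and not amplification or animals. In a sorted pool, moreover, fewer cells of a type and less RNA per cell cannot be told apart.

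The identity of the later arrays is unsettled. In the log2 table that the authors also deposited, the Tm column matched the scanner values of the array deposited for Tl (r = 1.000 over 36380 probes, residual SD 0.00435), and the Tl column matched the array deposited for Tm (residual SD 0.00571), whereas each had r = 0.729 with the array of its own label. Arrays are named below as the scanner files are assigned to the samples. A value that holds on both later arrays does not depend on this, and where the arrays differ, every Tm value would be a Tl value and the reverse.

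The sorted cells carried the transcripts of macrophages on every array. All 15 of the 15 macrophage markers with a probe, among them Csf1r, Adgre1 (F4/80), and Itgam (CD11b), were well above background at Te, Tm, and Tl. Markers of other cells were present as well, and some moved with the stages. All 15 keratinocyte markers were well above background on the 3 arrays, and 12 of them were at least 2-fold higher at Tm and 11 at Tl than at Te, with Krt5 higher by 3.97 and 3.32 on the log2 scale. The keratinocyte markers summed to a level of 8.13 (Te), 8.67 (Tm), and 8.11 (Tl), a sum dominated by 1 bright Trp63 probe (8.03, 8.04, and 7.35) whose course the other Trp63 probe, higher by 3.15 and 4.04, did not share. Their median difference from Te was 3.13 and 2.88. Cd207 (langerin), a Langerhans cell marker, was higher than at Te by 2.99 at Tm and by 2.13 at Tl (differences on the log2 scale). Median differences from Te at Tm and Tl were 0.71 and 0.80 over 5 monocyte markers, 0.79 and 0.65 over the neutrophil, 0.09 and −0.92 over the Langerhans and dendritic cell, 1.07 and 1.02 over the T cell, −0.56 and 0.14 over the mast cell, and 0.83 and −0.09 over the adipocyte markers with a value. The part of these cells in the values below was not tested.

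All 9 complement genes were well above background on the 3 arrays with each of their probes, and no spot was saturated. After this scaling the C1q genes were lower on both later arrays than at Te, most so the B chain. Of the 13214 genes measured at both Te and Tm, 12.3% had a larger decrease than C1qb, 22.9% than C1qa, and 34.5% than C1qc. At Tl these shares were 12.5%, 26.3%, and 26.6% of 14138 genes, so decreases of the size of C1qa and C1qc were common on these arrays. C1qb, the B chain, had levels of 6.77 (Te), 5.70 (Tm), and 5.59 (Tl), a difference from Te of −1.07 (2.11-fold lower) at Tm and −1.18 (2.27-fold lower) at Tl. The Te array thus stood apart by 6.9 technical SD from the next array, whereas Tm and Tl lay within 0.7 SD of each other. C1qa, the A chain, had a level of 6.44 at Te and of 5.88 at both Tm and Tl, a difference of −0.56 and −0.57 (1.48-fold lower on each), which is 3.6 SD. C1qc, the C chain, had levels of 4.48 (Te), 4.35 (Tm), and 3.93 (Tl), the same order of arrays with the larger step in another place. Te and Tm differed for C1qc by −0.13, or 0.9 SD of single spots, and the larger step lay between Tm and Tl (−0.43, 2.9 SD). This probe was printed 10 times per array, so the single-spot SD overstates the noise of its mean. After outlier spots were removed, its 10 spots at Te ran from 4.41 to 4.57 (SD 0.054). Its 8 spots at Tm ran from 4.28 to 4.41 (SD 0.048), and its 9 spots at Tl from 3.82 to 4.04 (SD 0.081). The spots of Te and Tm met only at 4.41, and those of Tl overlapped with those of neither other array.

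**Figure D1:**
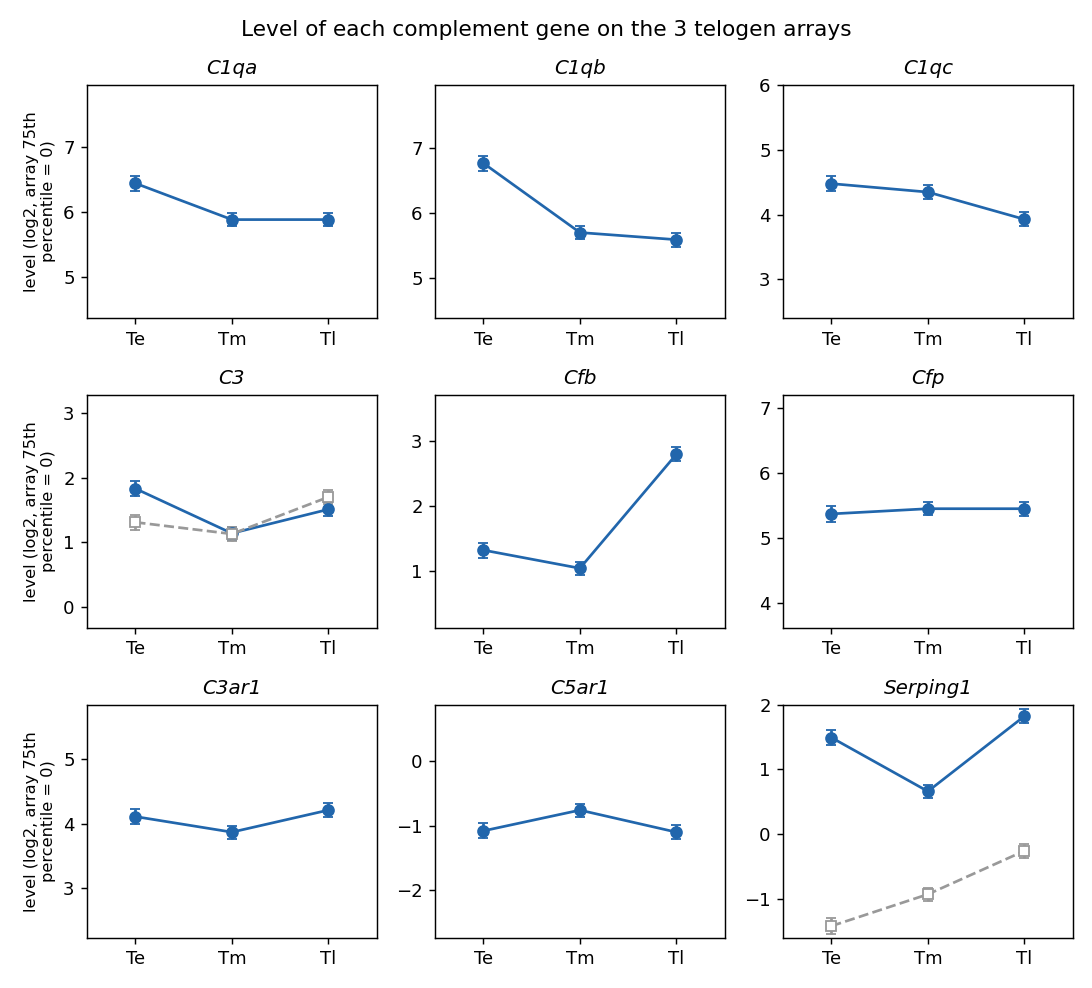
Level of each complement gene (y axis, log2 relative to the 75th percentile of the array) at Te, Tm, and Tl (x axis), 1 array per stage. Blue circles are the probe used for each gene and gray squares the second probe of C3 and Serping1, bars are the median spot SD of the array, and every panel spans the same range of log2 units. C1qa and C1qb drop from Te to Tm and then stay level, C1qc drops mainly from Tm to Tl, Cfb stands out at Tl with a level of 2.80, and Cfp lies between 5.37 and 5.45.

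The chains did not move by the same amount. The change of C1qb from Te minus that of C1qc was −0.94 log2 units at Tm and −0.62 units at Tl. These are 4.3 and 2.8 times the SD of 0.22 that spot noise gives to such a contrast of single spots. Because C1qc is a mean over repeated spots, the spot noise of contrasts with it is smaller than that. The change of C1qb minus that of C1qa was −0.51 at Tm and −0.61 at Tl (2.3 and 2.7 SD), and that of C1qa minus that of C1qc was −0.43 (2.0 SD) and −0.01. A factor common to all probes of an array cancels in these contrasts. Quantile normalization, which moves probes by rank, gave −0.59 for C1qb minus C1qc at Tm and turned it to 0.12 at Tl.

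How far C1qb was lower, and whether C1qa and C1qc were lower at all, depended on how the arrays were scaled. Quantile normalization put C1qa at −0.82 at Tm and 0.16 at Tl, and C1qb at −1.27 and −0.42. From Tm to Tl it gave a rise of 0.98 for C1qa and 0.84 for C1qb, which were level under the main scaling. Before scaling, C1qb had intensities of 45318 (Te), 25811 (Tm), and 44786 (Tl), and C1qa of 36024, 29227, and 54519. Over all genes the median difference from Te was 0.23 at Tm and 0.16 at Tl, and against that median C1qa was lower by 0.79 and 0.73 log2 units, C1qb by 1.30 and 1.34, and C1qc by 0.36 and 0.72. Over 10 housekeeping genes the median difference was 1.04 at Tm and 0.10 at Tl. Scaling by the median of all probes placed C1qa at −0.01 and −0.04 and C1qc at 0.43 and −0.04, with the median gene at 0.86 and 0.66. Without scaling the Tl differences were 0.60 for C1qa, −0.02 for C1qb, and 0.60 for C1qc, with the median gene at 1.33. Relative to the median gene, all 3 chains were below 0 on both later arrays under each of the 6 scalings and background corrections. There C1qb ranged from −1.59 to −1.09 at Tm and from −1.35 to −0.73 at Tl, C1qa from −1.14 to −0.74 and from −0.73 to −0.16, and C1qc from −1.0 to −0.29 and from −0.86 to −0.50.

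**Figure D2:**
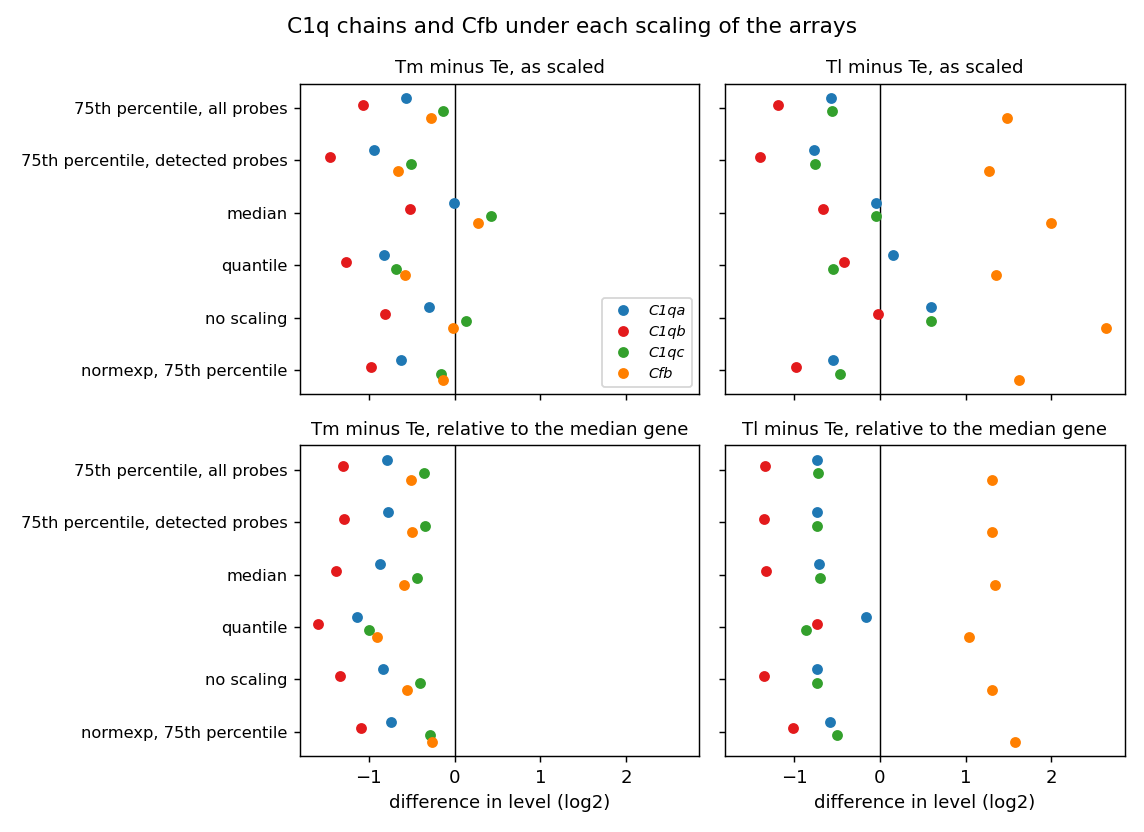
Difference from Te (x axis, log2) of the C1q chains and Cfb at Tm (left) and Tl (right) under 6 scalings of the arrays (y axis), as scaled (top) and after the median difference of all genes was subtracted (bottom); points are offset vertically by gene, 1 array per stage. In the bottom panels all points of the 3 chains lie left of 0, and Cfb lies between 1.04 and 1.58 at Tl.

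The C1q chains were also set against other macrophage genes of the same arrays. Csf1r, the receptor for the main macrophage growth factor, was higher than at Te by 0.70 at Tm and 0.16 at Tl, and Adgre1 by 0.69 and 0.33 (log2 differences). The other 2 Csf1r probes gave 0.73 and 1.30 at Tm and −0.14 and 0.45 at Tl. Against the 3 Csf1r probes, the change of C1qb was lower by 1.78 to 2.38 log2 units at Tm and by 1.04 to 1.63 at Tl, at least 4.6 times the SD of such a contrast. For C1qa these were 1.27 to 1.87 and 0.43 to 1.02, and for C1qc 0.84 to 1.44 and 0.42 to 1.01, with the smallest Tl contrasts at 1.9 SD. Maf, a transcription factor of macrophages, was lower by 1.81 at Tm and by 0.17 at Tl. Genes associated with resident macrophages went both ways. Among the lower ones were Cd163, the hemoglobin scavenger receptor, at −1.19 and −1.55, Selenop, a selenium carrier, at −0.52 and −1.05, and Cbr2, a carbonyl reductase, at −0.71 and −1.05. A second Cbr2 probe gave −0.07 and −0.46. Lyve1 was at 0.10 and 1.99, Trem2 at 1.85 and 1.08, and Timd4 at −0.44 and 1.00. How far the chains differed thus depended on the gene they were set against. Against Cd163, the change of C1qb was higher by 0.11 at Tm and 0.37 at Tl, of C1qa by 0.62 and 0.99, and of C1qc by 1.06 and 1.00. Against Apoe, another gene of this list, C1qb was lower by 1.10 and 0.68, C1qa by 0.59 and 0.07, and C1qc by 0.16 and 0.06. Against the brighter Adgre1 probe all 3 chains were lower on both arrays, by 0.82 or more. A second Adgre1 probe was higher than at Te by only 0.35 at Tm and 0.12 at Tl. Against that probe the chains were lower too, but by less. Over the 10 genes of the resident macrophage list the median difference was −0.41 at Tm and −0.26 at Tl, and over the 15 macrophage markers it was 0.07 and −0.17, against 0.23 and 0.16 for all genes.

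C3, the central protein of the cascade, was measured by a pair of probes that did not run alike. The brighter probe had levels of 1.83 (Te), 1.14 (Tm), and 1.51 (Tl), a difference from Te of −0.68 and −0.32. The other, printed 10 times, had levels of 1.31, 1.13, and 1.70, with a spot SD of 0.061, 0.075, and 0.051, and differences of −0.18 and 0.39. Both probes had their lowest level at Tm, and at Tl they gave opposite directions from Te, so the direction of C3 at Tl is not settled by these arrays.

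Cfb, the protease of the alternative pathway that pairs with C3b, had levels of 1.32 (Te), 1.04 (Tm), and 2.80 (Tl). Its difference from Te was −0.28, or 1.8 SD, at Tm and 1.48 (2.79-fold higher) at Tl, so that the Tl array stood 9.3 SD above the next one. At Tl 10.8% of the 14138 genes measured on both arrays had a larger increase, and from Tm to Tl, where Cfb was higher by 1.76 (3.39-fold), 1.2% of 13516 did. Under the 6 scalings the Tl difference lay between 1.27 and 2.64. If the later arrays are exchanged, this value belongs to Tm. Cfp, which encodes properdin, the stabilizer of the alternative pathway convertase, had a level of 5.37 at Te and 5.45 at Tm and Tl, and its arrays lay within 0.5 SD of their neighbors. Under the 6 scalings its difference from Te ran from −0.42 to 0.63 at Tm and from −0.13 to 1.24 at Tl, and relative to the median gene from −0.74 to −0.09 and from −0.10 to 0.20.

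Under the main scaling, the receptors for the small fragments C3a and C5a moved little. C3ar1 had levels of 4.11 (Te), 3.87 (Tm), and 4.21 (Tl), with differences from Te of −0.24 and 0.10, at most 1.5 SD. C5ar1 had a level of −1.08, −0.76, and −1.10, with differences of 0.33 (2.1 SD) and −0.02. Tm was thus the lowest array for C3ar1 and the highest for C5ar1, by steps of about the size of the spot noise or a little more. Under the 6 scalings the difference of C3ar1 from Te ran from −0.79 to 0.32 at Tm and from −0.11 to 1.26 at Tl. That of C5ar1 ran from −0.05 to 0.88 and from −0.25 to 1.15. Relative to the median gene the ranges were −1.11 to −0.32 and −0.18 to 0.20 for C3ar1. For C5ar1 they were −0.03 to 0.21 and −0.29 to −0.13.

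Serping1 encodes the inhibitor of the C1 proteases. Its brighter probe had levels of 1.49 (Te), 0.66 (Tm), and 1.82 (Tl), and its second probe −1.42, −0.93, and −0.26. The differences from Te were −0.83 and 0.33 for the brighter probe and 0.49 and 1.17 for the second. Both were highest at Tl, where the brighter probe was 2.24-fold above Tm, but at Tm they lay on opposite sides of Te. Markers of skin cells that also express this inhibitor are given beside it. Over 9 fibroblast markers with a value the median difference was −0.82 at Tm and over 10 it was 0.25 at Tl, and over 7 endothelial markers it was −0.95 and −0.11. Of the fibroblast markers 1 was at least 2-fold higher and 3 lower at Tm and 2 higher and 3 lower at Tl, and of the endothelial markers, all 7 well above background on every array, 0 and 3 at Tm and 1 and 1 at Tl. Summed levels, which the brightest probes dominate, were 6.55, 5.62, and 5.68 for the fibroblast and 4.43, 3.66, and 4.26 for the endothelial list at Te, Tm, and Tl. Their part in the Serping1 values was not tested.

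Counted by a 2-fold difference in either direction, few of the 9 genes passed. At Tm, 0 were higher and 1, C1qb, was lower than at Te, where 29.4% of 15835 genes were higher and 16.9% lower. At Tl, 1 (Cfb) was higher and 1 (C1qb) lower, where 22.6% of 16163 genes were higher and 20.7% lower. From Tm to Tl, a comparison added after the data were seen, 2 (Cfb and Serping1) were higher and 0 lower, against 8.12% and 11.3% of 14853 genes. At the 10-fold threshold of the study's methods 0 of the 9 passed in any of the 3 comparisons, against 1.49%, 1.18%, and 0.202% of all genes in either direction, respectively. A single gene is 11.1% of this group, so none of these shares is a result about the group as a whole. The median difference over the 9 genes was −0.28 at Tm and −0.02 at Tl, against 0.23 and 0.16 over all genes.

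**Figure D3:**
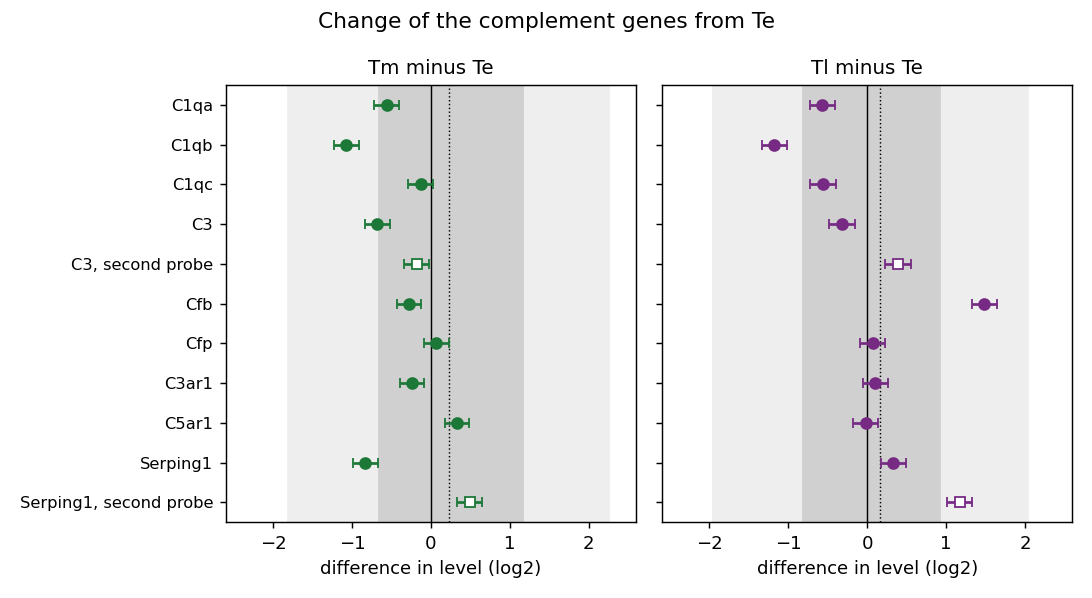
Difference in level from Te (x axis, log2) of each complement gene at Tm (left) and Tl (right), with bars for the technical SD of 0.156 and 0.159. Filled circles are the probe used for each gene and open squares the second probe of C3 and Serping1. The dark band lies between the quartiles of all genes, the pale band between their 5th and 95th percentiles, and the dotted line is their median. C1qb lies left of the dark band in both panels, and the filled circles of Serping1 and, narrowly, C3 do so at Tm. Cfb and the second Serping1 probe lie right of the band at Tl.

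The other genes of the cascade were taken from lists of 45 initiators, terminal components, regulators, and receptors, of which 43 had a probe and 26 were well above background on all 3 arrays. At Tm, 6 were at least 2-fold higher and 10 lower than at Te among the 34 with a value (17.6% and 29.4%, against 29.4% and 16.9% of all genes), with a median of −0.43. At Tl, 4 were higher and 10 lower among 35 (11.4% and 28.6%, against 22.6% and 20.7%), with a median of −0.02. The same shares of all genes apply to the smaller lists below, where a single gene weighs more, so that their counts are given as a description. Among the 15 genes of the classical and lectin pathways, 1 was higher and 5 lower of 13 at Tm (7.69% and 38.5%) and 1 higher and 4 lower of 13 at Tl (7.69% and 30.8%). Of the 8 genes of the alternative and terminal pathway, 3 were well above background on all arrays and 3 on none, and among the 4 with a value 2 were higher and 1 lower at Tm and 0 higher and 1 lower at Tl.

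Under the main scaling, the proteases that C1q carries did not share its course from Tm to Tl. C1ra had levels of 1.45 (Te), 1.55 (Tm), and 2.38 (Tl), with differences from Te of 0.09 and 0.93, and its dimmer second probe gave −0.60 and 0.31. C1s1 had a level of −0.71, −1.94, and 0.12, a difference of −1.23 at Tm (2.34-fold lower) and 0.83 at Tl. Both were highest at Tl, where C1qc was lowest and C1qb lay within 0.7 SD of its level at Tm. This contrast depended on the scaling. From Tm to Tl, C1qa and C1qb rose by 0.98 and 0.84 under quantile normalization and by 0.90 and 0.80 without scaling. In the lectin pathway, Masp2, the protease of mannose-binding lectin complexes, was lower by 1.20 and 1.09 log2 units at Tm and Tl. A dimmer Masp2 probe was at least 2.56-fold lower at Tm and 2.05-fold lower at Tl, and the remaining one, well above background only at Tm, was at least 1.86-fold higher there. The ficolin gene Fcnb was at least 4.39-fold lower at Tm, where it was not well above background, and 3.31-fold lower at Tl.

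Among regulators, Cr1l, which encodes the Crry protein that protects mouse cells from C3 deposition, was higher at both stages, with levels of 1.23 (Te), 2.81 (Tm), and 2.85 (Tl) (2.99-fold and 3.07-fold). Cd46 was dim, at least 2.20-fold lower at Tm, where it was not well above background, and 2.40-fold lower at Tl. In the list of 12 regulators these were the genes that passed 2-fold in the same direction on both later arrays, and 4 of the 12 were well above background on none.

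Complement receptors went both ways. Itgax, the α chain (CD11c) of complement receptor 4, had levels of 1.58 (Te), 4.31 (Tm), and 3.76 (Tl), 6.64-fold and 4.51-fold higher. It is also a marker of dendritic cells, and it was higher on the same arrays as Cd207. The Langerhans and dendritic cell markers did not all go this way. Of the 6 with a value, 3 were above Te and 3 below at Tm (median 0.09). At Tl 2 were above and 4 below (median −0.92). The part of such cells in the Itgax values was not tested. Itgam, the α chain of complement receptor 3 and the CD11b of the gate, was read by 3 probes that gave −0.23, −1.06, and −1.08 at Tm and −1.10, −0.79, and −0.13 at Tl, each below Te. Before scaling, the first and brightest of them had nearly the same intensity on every array, 204886 (Te), 210213 (Tm), and 214058 (Tl). Its differences therefore mainly mirror the percentile that each array was scaled to. Cr2, the receptor for C3d, was 3.36-fold and 3.77-fold lower, and its second probe had the same direction with −2.68 and −1.76. C1qbp, a mostly mitochondrial protein first found as a binder of C1q, was higher by 1.61 and 1.33, and Lrp1, an endocytic receptor linked to uptake of C1q-marked cells, was lower by 1.03 at both stages (log2 differences). Over the receptor list, 2 were at least 2-fold higher and 2 lower of 9 at Tm (22.2% each), and 2 higher and 3 lower of 10 at Tl (20% and 30%), near the shares of all genes.

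**Figure D4:**
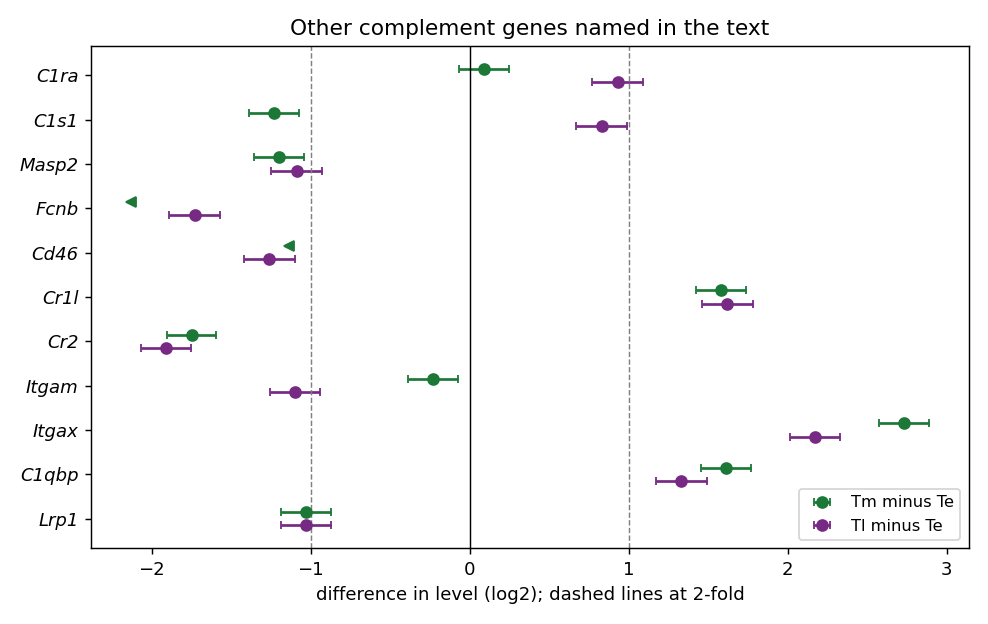
Difference from Te (x axis, log2) at Tm (green) and Tl (purple) of the other complement genes named in the text, 1 array per stage, with bars for the technical SD of a difference. Triangles are bounds, where the gene was not well above background at Tm. Itgax, Cr1l, and C1qbp lie beyond the right 2-fold line at both stages, and Masp2, Fcnb, Cd46, Cr2, and Lrp1 lie beyond the left one.

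Genes with a C1q domain outside the cascade, such as the CTRP, cerebellin, and collagen VIII and X genes, were followed as a list of 25, of which 13 were well above background on all arrays. At Tm 4 were at least 2-fold higher and 7 lower of 18 (22.2% and 38.9%, against 29.4% and 16.9% of all genes), and at Tl 1 was higher and 6 lower of 19 (5.26% and 31.6%, against 22.6% and 20.7%), with medians of −0.53 and −0.41. C1ql4 was lower by 1.24 and 1.27 log2 units, and Col10a1 was at least 2.11-fold lower at Tm, where it was not well above background, and 3.07-fold lower at Tl.

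The genes whose changes were most like those of C1q were sought by the Euclidean distance to the mean difference of the 3 chains, −0.59 at Tm and −0.77 at Tl. The nearest were Rhoh (distance 0.019), Cfap410 (0.020), Zbtb7a (0.026), St6galnac4 (0.028), and Cluh (0.031) on the log2 scale. Likeness over 2 differences is a weak criterion, as 307 of the 13035 genes compared (2.36%) were closer than the spot error of 0.22. Of 25 genes of the macrophage lists, 0 were that close, and the nearest were Selenop at 0.29, Cbr2 at 0.31, Cd14 at 0.33, and Lyz2 at 0.38. The chains themselves lay 0.20 (C1qa), 0.64 (C1qb), and 0.50 (C1qc) from their own mean.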

How the data were processed

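RNA of CD11b+Gr1−F4/80+ skin macrophages was measured on 1 one-color (Cy3) Agilent mouse array per stage, whose probe coordinates refer to mm9. The authors quantified the scans with Feature Extraction (version 10.7.3.1, per the submitters' processing notes). The deposited scanner files, 1 per array, hold linear spot intensities that the software had corrected for background but that were not normalized across arrays, together with flags for dim, outlier, and saturated spots. A deposited value table gives log2 values for 36409 probes, among them 4 of the 11 probes described here, and served as an alternative. The normalization behind it is not given in the sources used here. Its column medians were 0.362 for Te and 0 for the later stages, its columns for the later stages fit each other's scanner files, and it had 0 columns of other samples.

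Control and outlier spots were left out, spots of a probe were averaged, and the log2 mean intensity was expressed against the array's 75th percentile. A probe counted as well above background when at least 0.5 of its spots carried that flag. Where it did so on 1 array of a comparison, the brighter value was compared with the higher of the dim probe's signal and the lowest signal called well above background on that array, and the result is a bound. Probes were named through the RefSeq transcript in the scanner file and a RefSeq gene table (GRCm38.p6), and for each gene the brightest probe on average was used. With 1 array per stage no test was made, a gene was counted from 2-fold on, and the number of arrays limits the precision.

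The text names all 9 genes, the other complement genes past 2-fold in the same direction on both later arrays, the C1 proteases, Itgam, up to 2 C1q domain genes, and the 5 genes nearest to the C1q chains. Of the marker lists, the genes named were chosen after their values were seen. The genes and lists were chosen with earlier results of these data known. Alternatives were scaling by the 75th percentile of only those probes well above background on all arrays, other scalings (the median, quantile normalization, and none), normexp background correction (limma 3.58.1, offset 50), the value table of the authors, stricter and looser detection filters, inclusion of outlier spots, gene medians over probes, thresholds of 1.5-fold and 10-fold, the later arrays exchanged, and differences relative to the median gene, the last added after the data were seen. Only the scaling and difference steps were checked on simulated arrays, which were copies of the Te array with spot noise and known folds in a small set of probes. Far more genes differ between the real arrays, so this check cannot tell which scaling is right. Python 3.11.15, pandas 2.3.3, and R 4.3.3 were used.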

Additional observations from a re-analysis of the deposited data

How the results depend on the processing

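No paired analysis was possible because each stage has 1 array. The counts of the 9 genes moved as follows. The gene that was 2-fold lower than at Te, C1qb (1 at Tm and 1 at Tl), was no longer counted (0) at either stage with median scaling, no scaling, normexp, or a 10-fold threshold, nor at Tl with quantile normalization, whereas 3 genes were lower at Tm with quantile normalization, with the percentile over detected probes, or at 1.5-fold, and 2 relative to the median gene. Without scaling 5 genes were higher at Tl than at Te and 4 higher at Tl than at Tm. The median over a gene's probes left 1 gene higher at Tl than at Tm. With the later arrays exchanged, or in the authors' log2 table, 1 gene (Cfb) was higher at Tm and 0 at Tl, and 0 were higher and 2 lower at Tl than at Tm. Cfb then differed by −0.28 at Tl from Te and by −1.76 from Tm, and Serping1 by −1.17 (exchanged) or −1.16 (table) from Tm. The counts of the other complement genes ran, over all alternatives, from 0 at 10-fold to 8 higher and 16 lower at Tm (4 or 5 lower under median scaling, no scaling, or normexp, and 6 under quantile normalization), and to 19 higher (no scaling; 13 by the median, 10 at 1.5-fold, 7 in the table) and 15 lower at Tl (4 by the median, 3 by quantiles, 0 unscaled). Between the later arrays they ran from 0 to 17 higher (3 exchanged, 5 in the table) and from 1 to 12 lower (5 with looser filters, 7 at 1.5-fold, 10 exchanged). Over the single genes, 55 of 111 values at Tm and 57 of 111 at Tl stayed within the technical SD of those in the text, 56 and 52 moved by more, and 0 and 2 changed sign after a 2-fold call. For Tl against Tm these were 76, 31, and 4. Many of the unmoved values could not have moved. All 9 genes were well above background on every array, so the detection filters left their values as they were. Gene medians over probes likewise could not change a gene with a single probe. These tallies therefore overstate the stability of the values. The causes were not tested. All 9 genes were well above background, but the effects of RNA input, amplification, and animal differences could not be measured.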
